A study of Mus musculus with 8 samples.

Results

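The expression of 9 genes was followed liver by liver. They were Insr, Irs1, Irs2, Akt1, Akt2, Foxo1, Ppargc1a, Sik1 and Trib1, chosen by symbol as genes of insulin signalling and of the hepatic response to fasting. All 9 were found among the 24451 genes of the deposited table, and all 9 were among the 15352 genes tested, whose normalized count averaged 5 or more across the livers. Liver RNA was sequenced from 4 Brap LKO mice and 4 Brap F/F mice of the C57BL/6 strain at 18 wk of age, after a 6 h fast. Both groups carried homozygous floxed alleles of Brap, which encodes a BRCA1-associated cytoplasmic protein. The Brap LKO mice also carried a Cre transgene under the Albumin promoter, which acts in hepatocytes, while the Brap F/F mice had no Cre, so loss of Brap and presence of Cre cannot be told apart by these groups. Each library came from 1 animal and from a whole piece of liver, which holds other cell types besides hepatocytes.

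Insulin binds the insulin receptor on hepatocytes, which phosphorylates insulin receptor substrates and, through phosphatidylinositol 3-kinase, activates the AKT kinases. AKT keeps the transcription factor FOXO1 out of the nucleus and so lowers the transcription of genes for glucose production. In fasting, low insulin and high glucagon act in the other direction, through nuclear FOXO1 and through cAMP and the CREB transcription factor, which raises the coactivator gene Ppargc1a and the kinase gene Sik1. Much of this signalling is phosphorylation, which RNA levels do not measure.

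The promoters of Irs2, Irs1 and Ppargc1a are shown first. Irs2 was taken because it was the only one of the 9 genes whose groups did not overlap, which held for 9.87% of all tested genes. Irs1 is its closest relative, and Ppargc1a had the largest difference in the other direction. Sequences are the 250 bases before a RefSeq transcript start in GRCm38.p6, written 5′ to 3′ on the strand of the gene, with capitals for matches to TGACG, the arm of a cAMP response element, or to CACGTG, an E-box, on either strand. Windows were found for 6 of the 9 genes, and Insr, Sik1 and Trib1 had none. The windows of Irs2 (chr8:11008930-11009179, minus strand), Irs1 (chr1:82291440-82291689, minus strand) and Ppargc1a (chr5:51567726-51567975, minus strand) read as follows.
Irs2: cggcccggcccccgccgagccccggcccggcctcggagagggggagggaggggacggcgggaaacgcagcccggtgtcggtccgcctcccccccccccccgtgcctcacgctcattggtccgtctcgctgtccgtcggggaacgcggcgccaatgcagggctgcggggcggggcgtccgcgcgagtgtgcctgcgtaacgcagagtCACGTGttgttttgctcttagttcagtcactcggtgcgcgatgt
Irs1: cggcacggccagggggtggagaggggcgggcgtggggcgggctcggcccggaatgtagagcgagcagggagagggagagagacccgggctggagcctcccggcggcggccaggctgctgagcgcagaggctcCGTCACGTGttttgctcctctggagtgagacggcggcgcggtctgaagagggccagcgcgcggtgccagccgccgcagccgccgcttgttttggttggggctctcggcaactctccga
Ppargc1a: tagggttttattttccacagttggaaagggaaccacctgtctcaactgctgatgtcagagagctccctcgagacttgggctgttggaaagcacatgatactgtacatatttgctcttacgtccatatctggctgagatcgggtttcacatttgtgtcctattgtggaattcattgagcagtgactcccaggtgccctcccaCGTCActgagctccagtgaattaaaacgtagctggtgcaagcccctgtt
CACGTG began 44 bases before the RefSeq start in Irs2 and 115 bases before it in Irs1. These starts lie upstream of the gene spans given below, which end at chr8:11008458 for Irs2 and chr1:82291416 for Irs1. Distances hold for the RefSeq starts only. A reverse match to TGACG stood 49 bases before the start of Ppargc1a, and another stood 118 bases before that of Irs1, where it overlapped the E-box. TGACG was also in windows of Akt2, forward 44 bases before one start and reverse 66 bases before another. Of 32536 mouse promoter windows of this length, 6.04% held CACGTG and 17.9% held TGACG. The full element TGACGTCA (1.56% of windows) was in none of the windows found. GTAAACA (3.17% of windows) was only in a window of Akt1, as a reverse match 161 bases before the start. It was the only form of FOXO motif searched for, so other forms may be present in these windows. These matches are letters in a window and not measured binding.

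Gene-level reads totalled 26280884 in the shallowest and 33313914 in the deepest library. Values are normalized counts, that is, reads on a gene divided by a size factor for each liver, so that 1 read was worth between 0.849 and 1.14. Brap itself ranged from 3641 to 4203 in Brap LKO and from 3994 to 4410 in Brap F/F livers, a log2 difference of -0.07 (limma adjusted p = 0.631). A count over the whole gene includes exons outside the floxed segment and is no check of the labels. Markers of cell types were looked up in the same fit. All 8 tested cholangiocyte markers were higher on average in Brap LKO, and 2 of them, Cftr and Cldn4, passed the test. So did 1 of 12 macrophage markers (Gpnmb) and 1 of 11 stellate cell and fibroblast markers (Pdgfrb), against 0.769% of all tested genes. In Brap F/F, Cftr and Cldn4 averaged 1.03 and 0.762 normalized counts, against 14.1 and 11.5 in Brap LKO. These 2 genes met the minimum mean of 5 only through Brap LKO. Under an unadjusted limma p of 0.05 were 6 of 8 cholangiocyte, 4 of 12 macrophage and 6 of 11 stellate cell and fibroblast markers. The same held for 1 of 9 endothelial, 2 of 9 lymphocyte and 2 of 11 hepatocyte markers, against 15.8% of all tested genes. Those 2 hepatocyte markers were lower in Brap LKO. Higher on average in Brap LKO were 12 of 12 macrophage, 10 of 11 stellate cell and fibroblast, 9 of 9 endothelial and 8 of 9 lymphocyte markers. Summed normalized counts were 1919 to 3778 in Brap LKO against 1131 to 2128 in Brap F/F for cholangiocyte markers, 5452 to 9985 against 5714 to 7838 for macrophage markers, and 8008 to 12622 against 5288 to 9088 for stellate cell and fibroblast markers. They were 8178 to 11517 against 6887 to 10344 for endothelial markers, 147 to 235.0 against 109 to 165 for lymphocyte markers, and 2528810 to 3435720 against 3149890 to 4511780 for the 11 hepatocyte markers, 8 of which were lower on average in Brap LKO. Most of the hepatocyte sum, which averaged 2875910 in Brap LKO and 3772400 in Brap F/F, was Alb. Alb averaged 1703130 and 2441600 (limma adjusted p = 0.634). No marker was at 0 in all livers. In whole liver, fewer cells of a type and less RNA per cell cannot be told apart, and the part of cell composition in the results on the 9 genes was not tested.

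Of the 9 genes, 0 passed an adjusted p of 0.05 in limma, against 0.769% of all tested genes. Irs2 (1 of 9) was under an unadjusted p of 0.05, against 15.8% of all tested genes. Irs2 was also the 1 gene whose groups did not overlap, which held for 9.87% of all tested genes. On whole reads recovered from the table, edgeR called 0 of the 9 (background 0.795%) and DESeq2, the kind of test the study used, called 1, again Irs2 (background 4.15%). The median log2 difference of the 9 genes was -0.02, and that of all tested genes was -0.01. With each liver scaled to the same total in place of size factors, the median of all genes was 0.15, so directions of small differences below are relative to the median gene. Under that scaling Irs2 alone of the 9 passed in limma, while 459 genes were higher and 20 lower among all 15352 tested. Relative to that median, Irs2 was at 0.56.

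**Figure D1:**
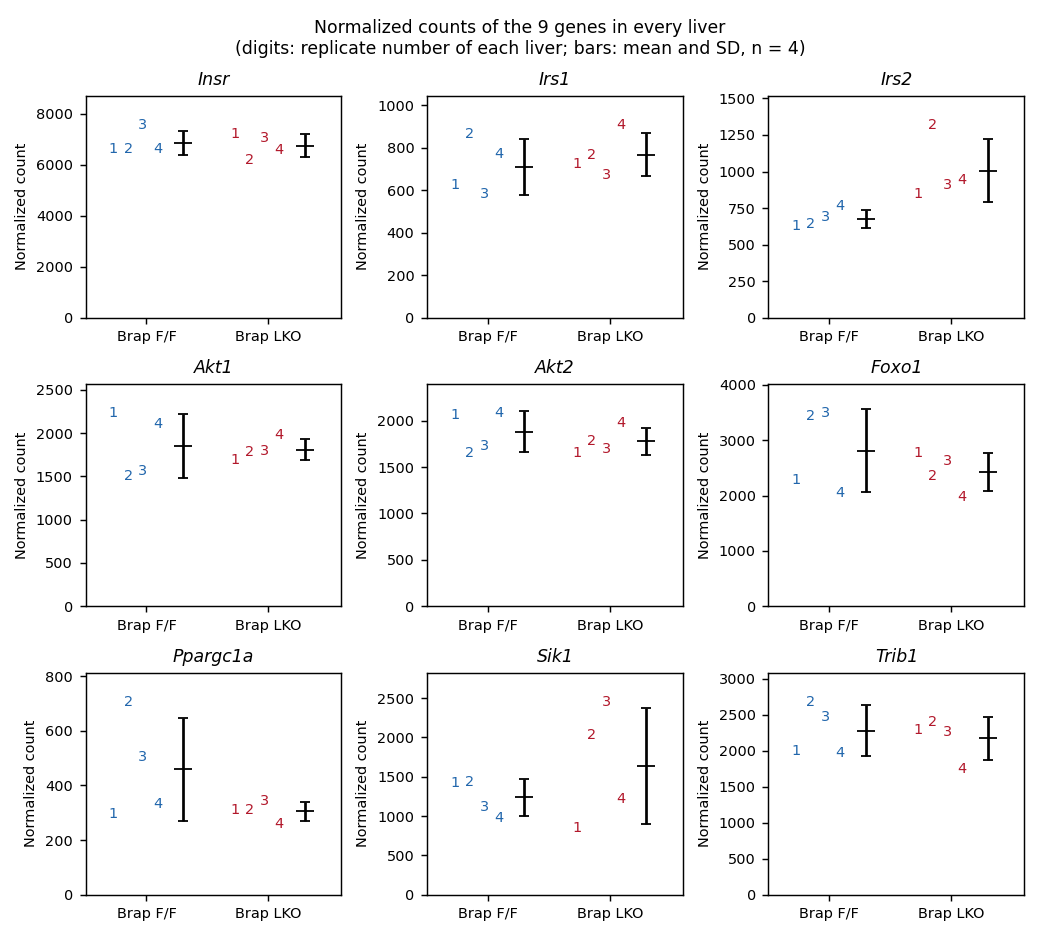
Normalized counts (vertical axes, from 0) of Insr, Irs1, Irs2, Akt1, Akt2, Foxo1, Ppargc1a, Sik1 and Trib1 in 4 Brap F/F (blue) and 4 Brap LKO (red) livers. Digits are replicate numbers, and bars give the mean and SD of each group. Irs2 is the panel without overlap, from 626 to 761 in Brap F/F and from 847 to 1321 in Brap LKO.

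Insr (chr8:3122061-3279617, mm10) encodes the insulin receptor. It had 7213, 6188, 7042 and 6578 normalized counts in Brap LKO livers 1 to 4 and 6637, 6616, 7577 and 6630.0 in Brap F/F livers 1 to 4. The groups overlapped in part, with Brap F/F replicate 3 the highest of the 8 and Brap LKO replicates 2 and 4 below every Brap F/F liver. The difference was -0.02 on the log2 scale (SE 0.0782, 95% interval -0.20 to 0.15, limma adjusted p = 0.904), and its sign turned with the scaling. With coefficients of variation of 6.87% and 6.92%, the receptor was one of the steadiest of the 9 genes in both groups.

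The substrates carry the signal from the receptor. Irs1 (chr1:82233101-82291416) encodes insulin receptor substrate 1. It had 724, 768, 674 and 910.0 normalized counts in Brap LKO and 624, 864, 582 and 769 in Brap F/F livers. The highest liver was in Brap LKO and the lowest in Brap F/F, with overlap between. Its log2 difference was 0.12 (SE 0.140, interval -0.19 to 0.44, limma adjusted p = 0.687). It ranged from 0.04 without Brap F/F replicate 3 to 0.22 without Brap F/F replicate 2, and was 0.26 with lower or higher animal numbers as a covariate and 0.28 with equal totals. Relative to the median of all genes under equal totals, Irs1 was at 0.14. Since 30.9% of its exon bases overlap Gm9747 on the opposite strand, and the use of strand in counting is not given in the sources used here, its reads cannot be fully told apart from those of that gene.

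Irs2 (chr8:10984681-11008458) encodes insulin receptor substrate 2, which insulin lowers and fasting raises in liver. It had 847, 1321, 909.5 and 940.2 normalized counts in Brap LKO and 626, 638, 687 and 761 in Brap F/F livers. Every Brap LKO liver was above every Brap F/F liver, and Brap LKO replicate 2 stood above its group. The means were 1004 ± 215 and 678 ± 61.6 (SD, n = 4), a fold of 1.46 (95% interval 1.18 to 1.81). On the log2 scale the difference was 0.55 (SE 0.136), with p = 0.00276 before and 0.104 after adjustment over all tested genes in limma, and an exact permutation p of 0.0286, the smallest that 4 livers against 4 allow. The adjusted p was 0.0910 in edgeR and 0.0133 in DESeq2. Without Brap LKO replicate 2 the log2 difference was 0.41. An opposite-strand gene, 9530052E02Rik, overlaps 2.56% of its exon bases.

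Set against its relative within each liver, Irs2 was 1.17, 1.72, 1.35 and 1.03 times Irs1 in Brap LKO and 1.004, 0.738, 1.18 and 0.990 times Irs1 in Brap F/F livers. These ratios overlapped, and their log2 difference of 0.42 had an exact permutation p of 0.0857 (0.257 adjusted over 6 ratios of relatives). Per kilobase of exon, the mean over 8 livers was 133 normalized counts for Irs2 and 80.9 for Irs1, and Irs2 was the higher in 8 of 8 livers on that scale.

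The AKT kinases act downstream of the substrates. Akt1 (chr12:112653821-112674884) had 1684, 1779, 1790 and 1976 normalized counts in Brap LKO and 2230.2, 1506, 1558 and 2104 in Brap F/F livers. All 4 Brap LKO livers lay inside the span of the Brap F/F livers. The log2 difference was -0.01 (SE 0.133, interval -0.31 to 0.28, limma adjusted p = 0.968), and its sign turned under quantile scaling, equal totals and limma sample weights. Akt2 (chr7:27591552-27640826), the main insulin-responsive AKT of liver, had 1654, 1782, 1690 and 1974 normalized counts in Brap LKO and 2058, 1650, 1730 and 2081 in Brap F/F livers. Its groups overlapped too, with a log2 difference of -0.08 (SE 0.0966, interval -0.30 to 0.14, limma adjusted p = 0.714) that turned positive with equal totals. Relative to the median of all genes under equal totals, Akt2 was at -0.07. Both kinases were highest in Brap F/F replicates 1 and 4 and Brap LKO replicate 4. The ratio of Akt2 to Akt1 stayed between 0.923 and 1.11 in the 8 livers (exact permutation p = 0.371, 0.446 adjusted over 6 ratios). Per kilobase of exon the mean was 446 for Akt1 and 256 for Akt2.

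Foxo1 (chr3:52268336-52353221) encodes the transcription factor that AKT restrains. It had 2764, 2347, 2619 and 1982 normalized counts in Brap LKO and 2291, 3435, 3491 and 2038 in Brap F/F livers. The Brap F/F group was split, with replicates 2 and 3 above all other livers and replicates 1 and 4 among the lowest. The log2 difference was -0.18 (SE 0.187, interval -0.60 to 0.24, limma adjusted p = 0.655). It ranged from -0.32 without Brap F/F replicate 4 to -0.07 without Brap F/F replicate 3, and was -0.03 with equal totals. Relative to the median of all genes under equal totals, Foxo1 was at -0.17. Gm20402 on the opposite strand overlaps 7.78% of its exon bases. Foxo3, a relative, ranged from 2414 to 3126 in Brap LKO and from 2399 to 3365 in Brap F/F, a log2 difference of -0.04 (limma adjusted p = 0.899).

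Ppargc1a (chr5:51454250-51567726) encodes PGC-1α, a coactivator of fasting and mitochondrial genes. It had 311, 309, 342 and 260.0 normalized counts in Brap LKO and 294, 707, 502 and 333 in Brap F/F livers. The 4 Brap LKO livers were tightly grouped, with a coefficient of variation of 11.1% against 41.0% in Brap F/F, and Brap F/F replicates 2 and 3 were again above all other livers. The means were 305 ± 33.9 and 459 ± 188 (SD, n = 4). On the log2 scale the difference was -0.50 (SE 0.248, interval -1.06 to 0.05), with a limma adjusted p of 0.360 and an exact permutation p of 0.2. Without Brap F/F replicate 2 it was -0.27, so this 1 liver carried much of the value. Count tests gave unadjusted p-values of 0.0454 (edgeR) and 0.0247 (DESeq2), and adjusted ones of 0.311 and 0.220.

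Ppargc1b, the relative of Ppargc1a that also coactivates fat synthesis genes, had a log2 difference of 0.34 (limma adjusted p = 0.489). It was 1.92, 1.65, 1.13 and 1.67 times Ppargc1a in Brap LKO and 0.815, 0.605, 1.04 and 1.11 times Ppargc1a in Brap F/F livers. Those ratios did not overlap between the groups, although Brap LKO replicate 3 was only just above Brap F/F replicate 4. The log2 difference of the ratio was 0.85, with an exact permutation p of 0.0286 that became 0.171 over the 6 ratios.

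Sik1 (chr17:31844250-31855804) encodes a salt-inducible kinase that cAMP induces and that restrains CREB coactivators. It had 847, 2025, 2454 and 1211 normalized counts in Brap LKO and 1422, 1439, 1109 and 977 in Brap F/F livers. Brap LKO held both the lowest and the highest livers, and its coefficient of variation was 45.0% against 18.6% in Brap F/F. The log2 difference was 0.30 (SE 0.304, interval -0.38 to 0.98, limma adjusted p = 0.652) and ranged from 0.06 to 0.58 as each liver was left out. Sik2 and Sik3, its relatives, had log2 differences of 0.01 and -0.16 (limma adjusted p = 0.983 and 0.367).

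Trib1 (chr15:59648350-59657099) encodes a pseudokinase scaffold that brings the ubiquitin ligase COP1 to C/EBPα. It had 2291, 2396, 2255 and 1740.0 normalized counts in Brap LKO and 2000, 2682, 2473 and 1965 in Brap F/F livers. The groups overlapped, with Brap F/F replicates 2 and 3 highest and Brap LKO replicate 4 lowest. The log2 difference was -0.07 (SE 0.132, interval -0.37 to 0.23, limma adjusted p = 0.825), and its sign turned with equal totals. Relative to the median of all genes under equal totals, Trib1 was at -0.06. Trib2 had a log2 difference of 0.70 (unadjusted p = 0.0308, adjusted p = 0.272, limma) and Trib3 one of 0.28 (adjusted p = 0.650, limma).

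Placed in order per kilobase of exon, the mean normalized counts over 8 livers were 495 for Insr, 446 for Akt1, 356 for Trib1, 302 for Foxo1, 279.7 for Sik1, 256 for Akt2, 133 for Irs2, 80.9 for Irs1 and 58.0 for Ppargc1a. In this order only the steps from Akt2 to Irs2 and from Irs2 to Irs1 held in 8 of 8 livers. The neighbours Insr and Akt1 were in order in 5 livers, Akt1 and Trib1 in 6, Trib1 and Foxo1 in 7, Foxo1 and Sik1 in 4, Sik1 and Akt2 in 3, and Irs1 and Ppargc1a in 6. The step from Trib1 to Foxo1 averaged 0.25 on the log2 scale with an SD of 0.165 over the 8 livers, while the step was smaller than its SD from Insr to Akt1, Akt1 to Trib1, Foxo1 to Sik1 and Sik1 to Akt2.

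Of the 14 relatives of the 9 genes that were looked up, 11 were tested and 0 passed an adjusted p of 0.05 in limma, edgeR or DESeq2, while 2, Trib2 among them, were under an unadjusted p of 0.05 in limma. Irs3 ranged from 5.47 to 10.1 normalized counts in Brap LKO and from 1.14 to 6.87 in Brap F/F, levels of a few reads. Insrr and Foxo6 were below the minimum of 5, with 0 to 2 and 1 to 3 reads per liver. The median log2 difference of the 11 tested relatives was 0.13.

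**Figure D2:**
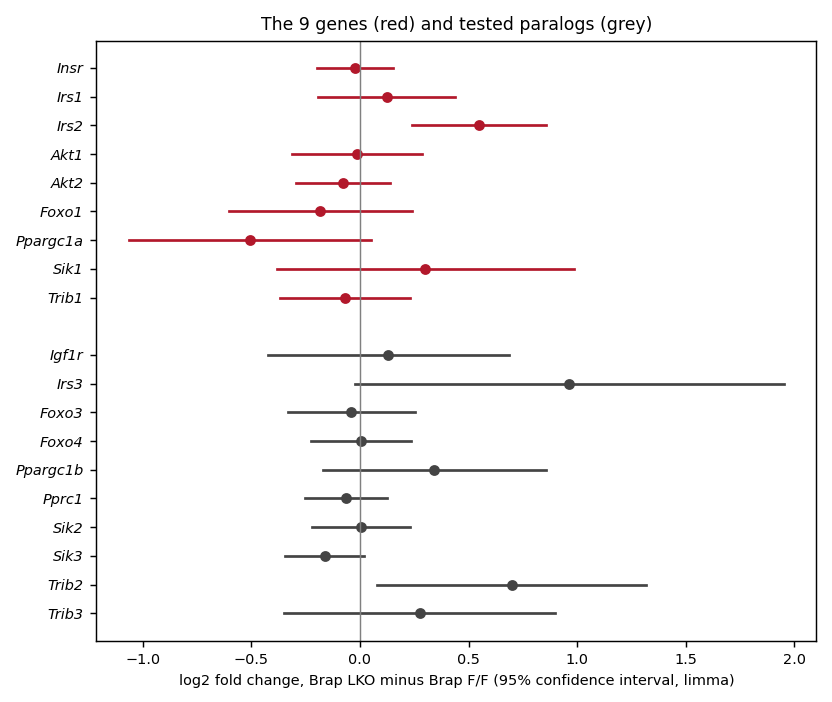
Log2 fold change of Brap LKO over Brap F/F (horizontal axis) with its 95% confidence interval from limma, n = 4 per group, for the 9 genes (red) and tested relatives (grey). Among the 9 genes only the interval of Irs2 (0.24 to 0.85) lies wholly on one side of 0, before adjustment over all tested genes.

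Within the Brap F/F group, replicates 2 and 3 stood together for some of the genes. Foxo1, Ppargc1a and Trib1 (3 of 9 genes) had Brap F/F replicates 2 and 3 as their highest livers, Akt1 (1 of 9) had them as its lowest, and the other 5 had neither. Among all tested genes, 14.4% had this pair as the highest livers and 11.8% as the lowest. The pair was picked out after its values were seen, and the labels give these mice consecutive animal numbers.

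Of 5 other genes of glucose and lipid metabolism, G6pc, Igfbp1 and Fasn also had this pair as their highest livers, while Pck1 and Srebf1 did not. G6pc, the last enzyme of glucose production, had 25688 and 23990.5 normalized counts in these livers against 8713 and 12182 in the other Brap F/F livers and 8833 to 19429.8 in Brap LKO. Igfbp1, a FOXO1 target, had 3041 and 1756 there against 686 and 855 in the other Brap F/F livers and 679 to 1625 in Brap LKO. Fasn, the fatty acid synthase that insulin raises, also had its highest values there, 18084 and 24517. Both 9 of 19 genes raised by fasting and 8 of 15 genes raised by insulin or feeding had this pair as their highest livers. The clock repressor Nr1d1 was lowest in this pair, at 828 and 1023 against 1423 to 3410.3 in Brap LKO. The pair was also highest in 5 of 8 glucocorticoid-responsive genes and in 5 of 11 hepatocyte markers. It was lowest in 3 of 8 cholangiocyte, 3 of 12 macrophage, 3 of 11 stellate cell and fibroblast and 3 of 9 lymphocyte markers, and highest in 2 of 9 endothelial markers. The part of cell composition was not tested.

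**Figure D3:**
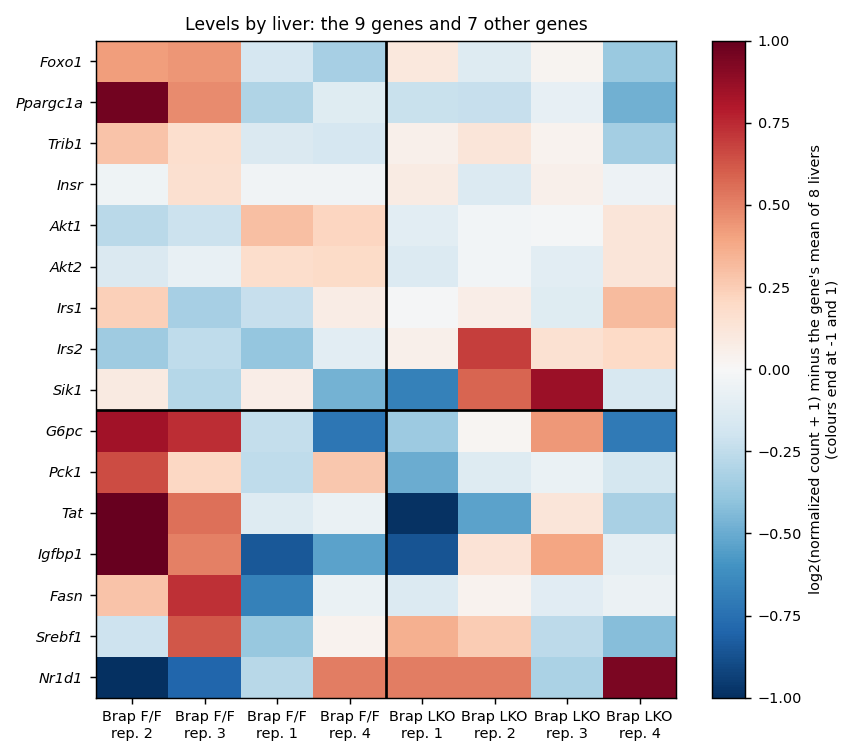
Level of each gene (rows) in each liver (columns) as log2(normalized count + 1) minus the mean of that gene over the 8 livers, red for above and blue for below, with Brap F/F replicates 2 and 3 in the first columns. Foxo1, Ppargc1a and Trib1 are highest in those columns together with G6pc, Tat, Igfbp1 and Fasn, while Akt1 and Nr1d1 are lowest there.

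Profiles over the 8 livers were compared with 227 genes of the lists averaging 50 or more normalized counts, each profile centred and divided by its SD, and a smaller root mean square difference means a more similar profile. Among the 9 genes the closest pairs were Akt1 and Akt2 (0.399 SD), Foxo1 and Trib1 (0.463 SD) and Foxo1 and Ppargc1a (0.509 SD), while Akt1 and Foxo1 were farthest apart (1.81 SD). Irs2 was nearest to Ccn1 (0.384 SD) and Crtc3 (0.537 SD), and Ppargc1a to Ass1 (0.184 SD) and Ciart (0.275 SD). Insr was nearest to Foxo3 (0.532 SD) and Trib1 to Esrra (0.258 SD). Irs1 was nearest to Sox9 (0.569 SD), which is one of the cholangiocyte markers, and Akt2 to Mapkap1 (0.251 SD), a subunit of the kinase complex that phosphorylates AKT. Sik1 had no close profile, with Pprc1 nearest at 0.717 SD. All points share the 8 libraries, the difference between the groups enters these distances, and the distances are descriptions.

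Other genes of the pathway were described list by list. In these lists edgeR called Ccn1 alone, 1 of 20 immediate early genes, against 0.795% of all tested genes. DESeq2 also called Ccn1, with Socs2 (1 of 20 adaptors and brakes) and Pik3cg (1 of 13 phosphoinositide enzymes). It further called Eif4ebp1 (1 of 23 in the AKT arm) and Hdac7 (1 of 32 in the glucagon arm). DESeq2 called 0 genes in the other pathway lists, and 4.15% of all tested genes. Counts under an unadjusted p of 0.05 in these lists stand beside the 15.8% of all tested genes under it. Of 20 adaptors and brakes of the receptor, 0 passed in limma and 3 were under an unadjusted p of 0.05, with a median log2 difference of -0.02. Socs2, a growth hormone-induced suppressor of cytokine signalling, had 489, 446, 724 and 285 normalized counts in Brap LKO and 85.5, 136, 301 and 189 in Brap F/F livers. These values overlapped in 1 place, where Brap F/F replicate 3 exceeded Brap LKO replicate 4. The log2 difference was 1.51 (SE 0.382, adjusted p = 0.107, limma), and DESeq2 gave an adjusted p of 0.00461. Grb10, an adaptor that dampens the receptor, had a log2 difference of 0.60, and Grb2, an adaptor to the Ras pathway, one of -0.18 (adjusted p = 0.209 and 0.199, limma).

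Of 13 phosphatidylinositol 3-kinase subunits and phosphoinositide phosphatases, 0 passed in limma and 4 were under an unadjusted p of 0.05, all higher in Brap LKO. Pik3cg and Inpp5d, which are best known in blood cells, had log2 differences of 0.85 and 0.47 (adjusted p = 0.120 and 0.213, limma), and the macrophage and lymphocyte marker values are given above. In the arm of AKT, mTOR and GSK3, 0 of 23 genes passed in limma and 3 were under an unadjusted p of 0.05, while 18 of 23 were lower on average in Brap LKO. Eif4ebp1, the repressor of translation that mTOR inactivates, had 808, 847, 846 and 751 normalized counts in Brap LKO and 998, 1048, 971 and 1053 in Brap F/F livers. Its groups did not overlap, with a log2 difference of -0.32 (SE 0.0668, adjusted p = 0.0662 in limma and 0.00229 in DESeq2). With equal totals the value was -0.17, which was -0.31 relative to the median of all genes under that scaling.

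In the arm of glucagon, cAMP and AMPK, 0 of 32 genes passed in limma and 7 were under an unadjusted p of 0.05, 5 higher and 2 lower in Brap LKO. Hdac7, a histone deacetylase of the class that the SIK kinases phosphorylate, had 344, 351, 375 and 323 normalized counts in Brap LKO and 249, 278, 268 and 235 in Brap F/F livers. Its groups did not overlap, with a log2 difference of 0.44 (SE 0.0885, adjusted p = 0.0632 in limma and 0.00277 in DESeq2). Of 16 tested fasting transcription factors and partners, 0 passed in limma and 1, Nfil3, was under an unadjusted p of 0.05, with a log2 difference of -0.39 (adjusted p = 0.305).

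Genes downstream of the hormones came next. Among 19 genes raised by fasting, 0 passed in limma, 2 were under an unadjusted p of 0.05 and 15 were lower on average in Brap LKO, with a median of -0.27. Tat, a tyrosine-degrading enzyme, had a log2 difference of -0.86 and Angptl4, an inhibitor of lipoprotein lipase, one of -0.34 (adjusted p = 0.277 and 0.181, limma). Pck1, which catalyses an early step of glucose production, had 89009, 114664, 119631 and 110956 normalized counts in Brap LKO and 105339, 197358, 145217 and 151278 in Brap F/F livers. The groups of Pck1 overlapped only through Brap F/F replicate 1, and its log2 difference was -0.44 (SE 0.211, adjusted p = 0.352, limma). G6pc and Igfbp1 had differences of -0.31 and -0.21 (adjusted p = 0.705 and 0.844, limma).

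Among 15 genes raised by insulin or feeding, 0 passed in limma and 1, the growth-factor-induced Egr1, was under an unadjusted p of 0.05, with a median of -0.14. Srebf1 and Fasn, which insulin raises, had log2 differences of -0.04 and -0.14 (adjusted p = 0.950 and 0.811, limma). Among 8 glucocorticoid-responsive genes, 0 passed and 7 were lower on average, with a median of -0.39, Zbtb16 being under an unadjusted p of 0.05 at -1.26. Of 17 clock genes, 0 passed in limma, edgeR or DESeq2, and Nr1d1 and Bhlhe41 were under an unadjusted p of 0.05, at 0.83 and 0.78.

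Among the immediate early genes, 1 of 20 passed in limma. Ccn1, a matricellular protein gene, rose from 190.4, 146, 149 and 193 normalized counts in Brap F/F to 296, 393, 262 and 282 in Brap LKO livers. Its groups did not overlap, and the log2 difference was 0.85 (SE 0.153, adjusted p = 0.0469, limma). Without any 1 liver other than Brap F/F replicate 4 it no longer passed, with an adjusted p of up to 0.150 in limma. As the closest profile to Irs2, Ccn1 shared with it the highest liver, Brap LKO replicate 2. It also shared the separation of the groups, which enters that distance. Ccn1 is also made by fibroblasts and endothelial cells, whose marker values are given above, and their part in this rise was not tested.

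**Figure D4:**
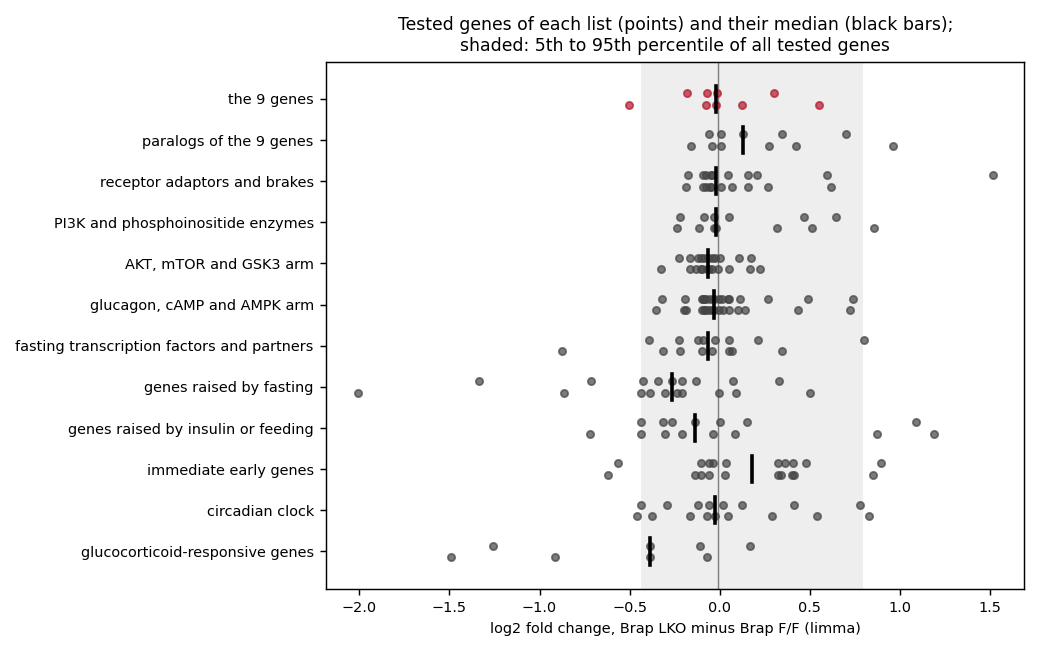
Log2 fold change of Brap LKO over Brap F/F (horizontal axis, limma) for each tested gene (points) of the 9 genes and of the other pathway lists, with the median of each list (black bars), the median of all tested genes (grey line) and their 5th to 95th percentile (shaded, -0.43 to 0.79). Among the lists shown, the medians of genes raised by fasting (-0.27) and of glucocorticoid-responsive genes (-0.39) lie lowest, and that of immediate early genes (0.18) highest. Marker lists are not shown. Their medians were -0.34 for hepatocyte, 0.26 for endothelial, 0.51 for stellate cell and fibroblast, 0.55 for macrophage, 0.56 for lymphocyte and 0.95 for cholangiocyte markers.

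The values of Irs2 and Ppargc1a kept their sign under 22 of 22 other settings. Irs2 lay between 0.41 and 0.71 on the log2 scale, under an unadjusted p of 0.05 in 22 of 22 settings and under an adjusted p of 0.05 in 2. Its adjusted p ranged from 0.0133 to 0.226. Ppargc1a lay between -0.69 and -0.27, under an unadjusted p of 0.05 in 6 of 22 settings, and its adjusted p ranged from 0.152 to 0.614. Animal numbers fell into a lower and a higher series with 3 Brap LKO and 1 Brap F/F mice in the lower and 1 and 3 in the higher, too few for values within a series. With the series as a covariate the log2 difference was 0.56 for Irs2 (adjusted p = 0.210, limma) and -0.40 for Ppargc1a (adjusted p = 0.614, limma).

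**Figure D5:**
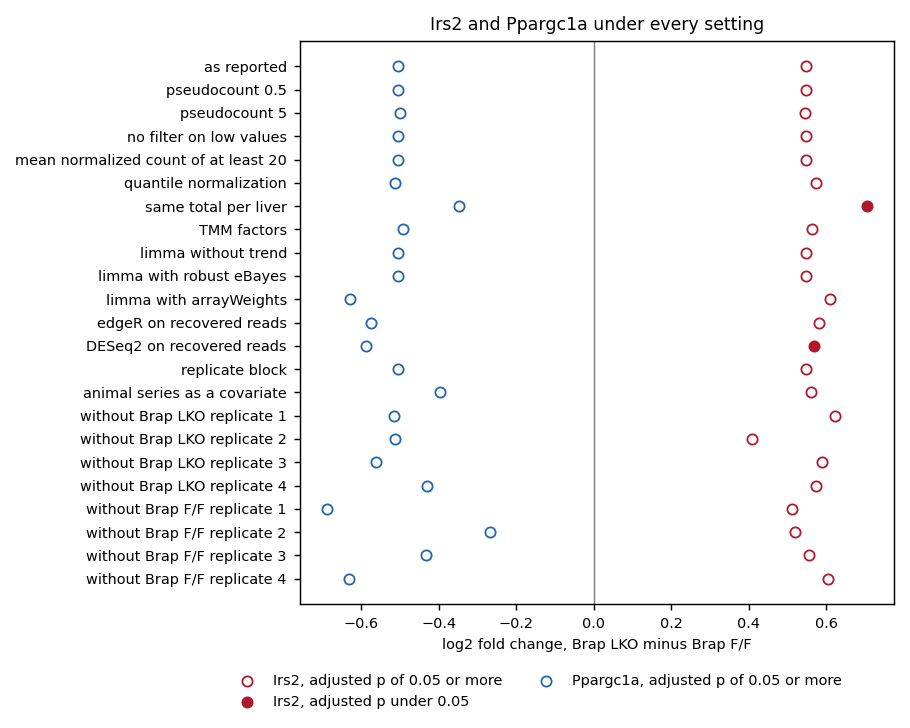
Log2 fold change of Brap LKO over Brap F/F (horizontal axis) of Irs2 (red) and Ppargc1a (blue) as reported and under 22 other settings (rows). Filled points have an adjusted p under 0.05, which Irs2 reached with equal totals per liver and in DESeq2 and Ppargc1a did not reach.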

How the data were processed

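Liver RNA of 8 mice, 4 in each group, was analysed, grouped by the deposited titles. Per the sources, the authors sequenced libraries of a NuGEN mRNA kit, aligned the reads to mm10 with STAR 2.6.0c and divided gene counts by DESeq2 size factors. How reads were assigned to genes (tool, annotation, strand) is not given in the sources used here. The deposited signal is therefore normalized counts for 24451 genes. A second deposited table holds the authors' own comparison (base mean, log2 fold change with its error, p-values and fold change) and was not used.

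All values (100%) were whole multiples (tolerance 0.01) of 1 read, so reads were recovered. Depth was 26280884 to 33313914 assigned reads per library, and its sampling error is included in the spread between livers.

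The deposited unit is not raw counts, so the study's test, DESeq2, was kept as an alternative on the recovered reads, and limma 3.58.1 in R 4.3.3 (with a mean-variance trend, no covariates, two-sided) was fitted on log2(normalized count + 1) to the 15352 genes with a mean of at least 5, with Benjamini-Hochberg adjustment and a threshold of 0.05. This scale understates the change of low genes. Two-sided exact permutation tests used all 70 arrangements. edgeR 4.0.16 (quasi-likelihood) and DESeq2 1.42.0 were alternatives, as were other scalings, pseudocounts, filters, weights and covariates, and leaving out each liver. The scripts were tested on simulated data.

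Positions and exon lengths came from GENCODE M21 on the same build, and promoters from RefSeq GRCm38.p6. The 9 genes and the lists were chosen with earlier results of these data known. Named from each list were the relatives of the 9 genes, any gene past the threshold, then the smallest unadjusted p-values under 0.05 up to 4 a list, and Pck1, G6pc, Igfbp1, Srebf1 and Fasn whatever their values. Some genes under this rule are not reported here.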

Additional observations from a re-analysis of the deposited data

Results flagged for a closer look

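In each group of 4 livers, the highest or lowest liver was set apart when its gap to the nearest other liver took up more than 0.829 of the range of the group. Over 53 genes and 106 groups, 5 were set apart, and chance gives about 1 in 20 (5.3 groups). Insr was at 7577 normalized counts in Brap F/F replicate 3, and the others of its group lay at 6616 to 6637. Egr1 was at 412 in Brap F/F replicate 4, where the others lay at 91.2 to 114. The other 3 rested on few reads. Irs3 was at 5.47 in Brap LKO replicate 1 against 9.34 to 10.1, Foxo6 was at 3.42 (3 reads) in Brap F/F replicate 1, with 0.981 to 1.05 elsewhere in its group, and Insrr was at 1.70 (2 reads) in Brap LKO replicate 2 against 0.911 to 1.04.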

How the results depend on the processing

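Of the 9 genes, 1 (Irs2) passed the threshold with equal totals per liver (adjusted p = 0.0325, limma) and 1 (Irs2) in DESeq2, and 0 in the other 20 settings. Signs turned only at small differences. With quantile normalization Insr was at 0.0818, Akt1 at 0.0332 and Trib1 at 5.3e-06. With equal totals they were at 0.134, 0.144 and 0.0886, and Akt2 at 0.0789. The median of all genes was 0.146 under that scaling. Relative to it, Insr was at -0.0115, Akt1 at -0.00206, Trib1 at -0.0571 and Akt2 at -0.0668, with no sign turned. With limma sample weights Akt1 was at 0.0513. Leaving out each liver in turn gave -0.0557 to 0.0250 for Insr, -0.105 to 0.0835 for Akt1 and -0.136 to 0.0339 for Trib1. The causes were not tested. DESeq2 called 1 receptor adaptor or brake (Socs2), 1 phosphoinositide enzyme (Pik3cg), 1 gene of the AKT arm (Eif4ebp1) and 1 of the glucagon arm (Hdac7), while equal totals called 1 of the first (Socs2) and 1 of the last (Hdac7), and sample weights 1 of the last (Hdac7). The 1 immediate early gene, Ccn1, was lost (0 calls) with a minimum mean of 20, quantile normalization, no trend, the animal series and the replicate block, and with any single liver left out except Brap F/F replicate 4 (range 0 to 1). Leaving out single livers gave 0 to 2 calls among genes raised by fasting (Cyp4a14 and Cyp4a10 without Brap F/F replicate 4) and 0 to 1 among those raised by insulin or feeding (Egr1 without the same liver). Over all 15352 tested genes, 178 were higher and 54 lower without that liver, against 102 and 16 with it. Replicate numbers did not pair the livers: same-numbered livers correlated in their deviations from the group means at -0.13, 0.00336, 0.20 and 0.29, and not every liver correlated best with its own number. With the replicate block, 80 genes were higher and 15 lower, against 102 and 16 without it, Irs2 had an adjusted p of 0.128, and no call of the 9 genes changed. Over all genes DESeq2 gave 455 higher and 170 lower, equal totals 459 and 20, and sample weights 185 and 39.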
